A study of Sus scrofa with 10 samples.

Results

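The unfolded protein response and the integrated stress response were described through 32 genes in RNA from pig morulae. The genes were taken by name from a list of stress sensors, transcription factors, chaperones, degradation factors and amino acid or one-carbon enzymes. All 32 were found among the 24358 genes of the deposited table, 29 under their own name and 3 (HSP90B1, DNAJB11 and PPP1R15A) under an Ensembl identifier that a table of Ensembl names resolved. The knockdown embryos, labelled DDB1_KD, came from matured oocytes injected with siRNA against DDB1. The controls, labelled NC, came from oocytes that received a non-specific siRNA. All embryos of both groups were parthenogenetic: oocytes were activated without sperm after injection and grown to the morula, so no paternal genome was present. Each group had 5 libraries, and the sources used here do not give the number of embryos in a library or the breed and age of the donors. Since no label ties the 5 libraries to separate cultures, every p-value measures the spread between libraries, which may be partly technical.

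Misfolded protein in the endoplasmic reticulum (ER) is sensed by 3 membrane proteins, encoded by ERN1 (IRE1), EIF2AK3 (PERK) and ATF6. IRE1 splices XBP1 mRNA into the form that encodes an active transcription factor, ATF6 is cleaved into one, and PERK phosphorylates the initiation factor eIF2, which slows translation in general while raising that of ATF4. Other kinases that sense amino acid shortage, haem shortage or viral RNA act on eIF2 as well, and this shared branch is the integrated stress response. Targets of XBP1 and ATF6 include ER chaperones and degradation factors, while targets of ATF4 include asparagine, serine and one-carbon enzymes and the factor DDIT3 (CHOP). In early embryos, in vitro culture is known to engage these pathways. Translation and phosphorylation were not measured by these data, which hold RNA levels alone. Splicing of XBP1 was not assessed from the deposited gene and isoform levels.

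The libraries held 32466912 to 47737219 estimated counts in DDB1_KD and 33737657 to 50911295 in NC. DDB1, an adaptor of the CUL4 ubiquitin ligases and the targeted gene, had 0.920, 1.30, 1.28, 1.30 and 1.55 FPKM (fragments scaled by transcript length and library size) in DDB1_KD replicates 1 to 5, against 3.59, 3.12, 2.53, 3.15 and 4.44 FPKM in NC replicates 1 to 5. All 5 DDB1_KD libraries were below all NC libraries. Its edgeR p was the smallest of the 8476 genes tested (log2 fold change -1.39, SE 0.28). The adjusted p was 0.977 in edgeR and 0.0069 in DESeq2, so the targeted gene passed in the second tool alone. Of 13 morula and pluripotency markers 10 were found, with a summed level of 309 to 693 FPKM in DDB1_KD and 283 to 449 FPKM in NC. No other stage was set beside this sum, so it does not establish the stage of the embryos. Of 11 cumulus cell markers 10 were found, with AMH, FSHR and INHA at 0 counts in all libraries and a summed level of 0.167 to 1.12 FPKM in DDB1_KD and 0.168 to 1.22 FPKM in NC. The 6 fibroblast markers summed to 0.835 to 3.14 FPKM in DDB1_KD and 1.38 to 2.25 FPKM in NC, and 5 blood cell markers found to 1.57 to 7.79 FPKM in DDB1_KD and 1.63 to 10.6 FPKM in NC. The libraries of a group differed in their maternal oocyte transcripts. The mean of 13 of these was 2.44, 5.52, 5.14, 3.78 and 4.72 log2 CPM (counts scaled to library size) in DDB1_KD replicates 1 to 5 and 3.94, 4.09, 4.67, 3.18 and 3.003 log2 CPM in NC replicates 1 to 5.

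No stress response gene passed the test of DDB1_KD against NC. With edgeR (quasi-likelihood F-test) and p-values adjusted over all genes by Benjamini and Hochberg at 0.05, 0 of the 29 genes with a mean level of at least 1 FPKM were called, as were 0 of all 8476 genes tested (0.0%). By fitted value 24 of the 29 were lower in DDB1_KD and 5 higher, while 50.0% of all genes tested were lower. Their median log2 fold change was -0.31, against 0.00036 over all genes tested. With 1 library left out the median ran from -0.47 (DDB1_KD replicate 4 absent) to -0.12 (NC replicate 2 absent), and the number of lower genes from 19 (NC replicate 1 or 2 absent) to 24. It was also over 1.5 times nearer to 0 when NC replicate 1 or DDB1_KD replicate 2, 3 or 5 was absent, at -0.20 to -0.17. Other measures differed between the groups as well. Of the 13 maternal oocyte transcripts tested, 12 had a higher fitted value in DDB1_KD (median log2 fold change 0.74, none called). The mitochondrial share of counts lay between 12.2% and 24.4% in DDB1_KD libraries and between 8.58% and 18.4% in NC libraries, and 13522 to 14423 genes had a count in DDB1_KD and 14148 to 14755 in NC. DDB1_KD replicate 5 had the highest mitochondrial share and the fewest genes with a count. DDB1_KD replicate 4 had the fewest estimated counts of all libraries. Within DDB1_KD it also had the lowest mitochondrial share and the most genes with a count. The part of these measures in the lower stress response values was not tested. By role, lower values were fitted for 4 of 4 transcription factors, 3 of 3 effectors of the integrated stress response, 4 of 7 ER chaperones, 2 of 2 lectin chaperones, 3 of 4 disulfide isomerases, 3 of 3 degradation factors and 5 of 5 metabolic enzymes, and a higher one for the single sensor tested. The sign held under every alternative setting for 17 of the 29 genes, 14 of them lower. These are descriptions of a list chosen with earlier results known and carry no test. As these are whole-embryo samples, fewer cells of a type and less RNA per cell cannot be told apart.

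One member, CANX, had an unadjusted p under 0.05 and was lower, where 1.13% of all genes tested were lower and 1.76% higher at that p (245 genes together). No member had groups without overlap, which held for 0.224% of all genes in the lower direction and 0.189% in the higher. DESeq2 called 0 members and 2 genes in all (0.0236%), and had 2 members at an unadjusted p under 0.05, with 4.17% of all genes. limma on log2(FPKM + 1) called 0 members and 0.0% of all genes, with 3 members and 3.22% of all genes at an unadjusted p under 0.05. The smallest adjusted p of a member was 0.977 in edgeR, 0.826 in DESeq2 and 0.969 in limma.

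**Figure D1:**
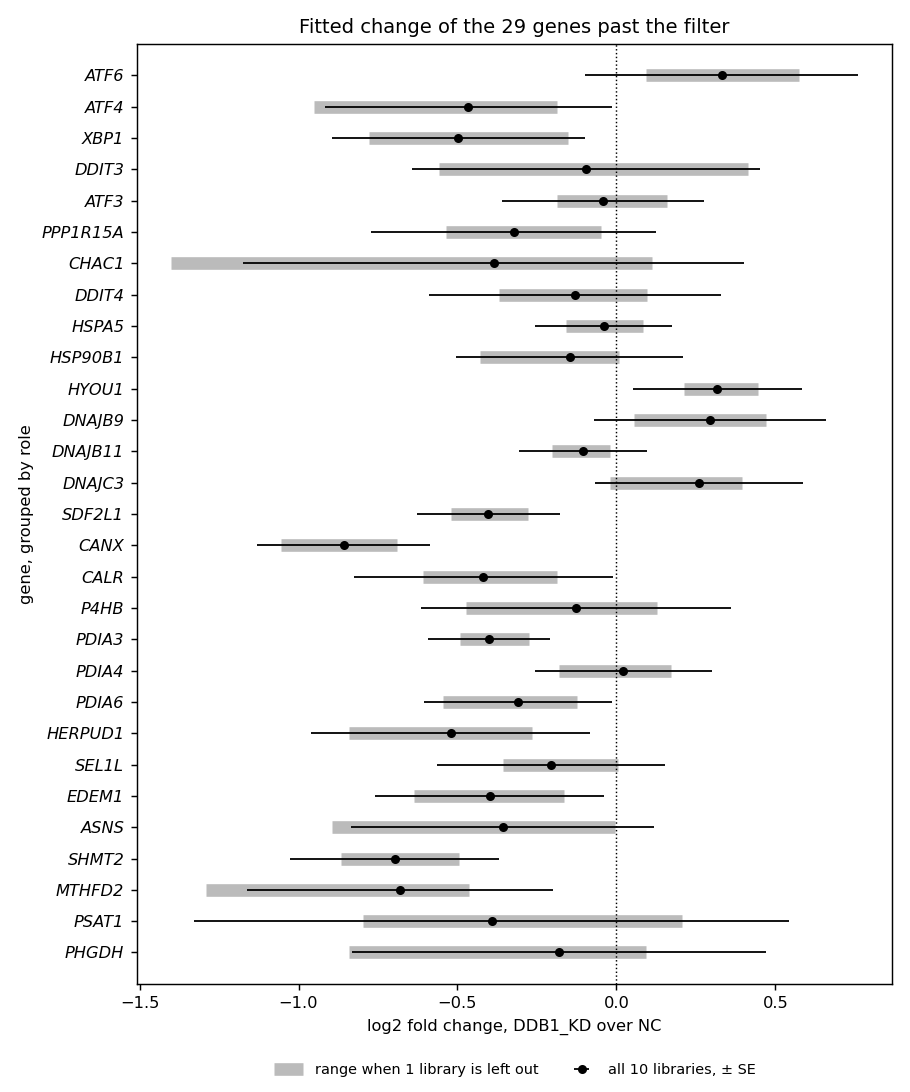
Fitted log2 fold change of DDB1_KD over NC for the 29 genes past the filter, with the standard error (black) and the range when each library was left out in turn (grey). Most points lie left of 0, CANX farthest at -0.86, and for most genes the standard error or the grey range reaches close to 0 or across it.

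The sensors were rare transcripts apart from ATF6. ERN1 was listed at 0 counts in DDB1_KD replicates 1, 2 and 3 and in NC replicates 2 and 3, and at 0.0374 and 0.874 FPKM in DDB1_KD replicates 4 and 5 and 0.181, 0.0396 and 0.0510 FPKM in NC replicates 1, 4 and 5. Its highest count was 136, in DDB1_KD replicate 5. EIF2AK3 had 0.768, 0.728, 0.857, 1.16 and 0.234 FPKM in DDB1_KD and 0.841, 0.673, 0.625, 0.660 and 0.396 FPKM in NC (replicates 1 to 5 in each list of 5 values here and below). Both genes were under the filter and were not tested, and for EIF2AK3 the DDB1_KD range enclosed the NC range. ATF6 (chromosome 4, 88591281 to 88805285, minus strand of the pig build susScr11) had 1.63, 9.03, 6.73, 2.81 and 6.20 FPKM in DDB1_KD and 4.11, 4.86, 6.68, 2.79 and 2.79 FPKM in NC. The 3 DDB1_KD libraries at or above 6.20 FPKM were replicates 2, 3 and 5, those with the highest maternal transcript levels in that group. NC libraries shared such an order, with replicate 3 highest in both measures, then replicates 2 and 1, and replicates 4 and 5 lowest. Whether ATF6 and maternal transcript levels bear on each other was not tested. ATF6 did not pass (log2 fold change 0.33, SE 0.43, edgeR adjusted p = 0.977), and its fitted value was 0.093 without DDB1_KD replicate 2.

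**Figure D2:**
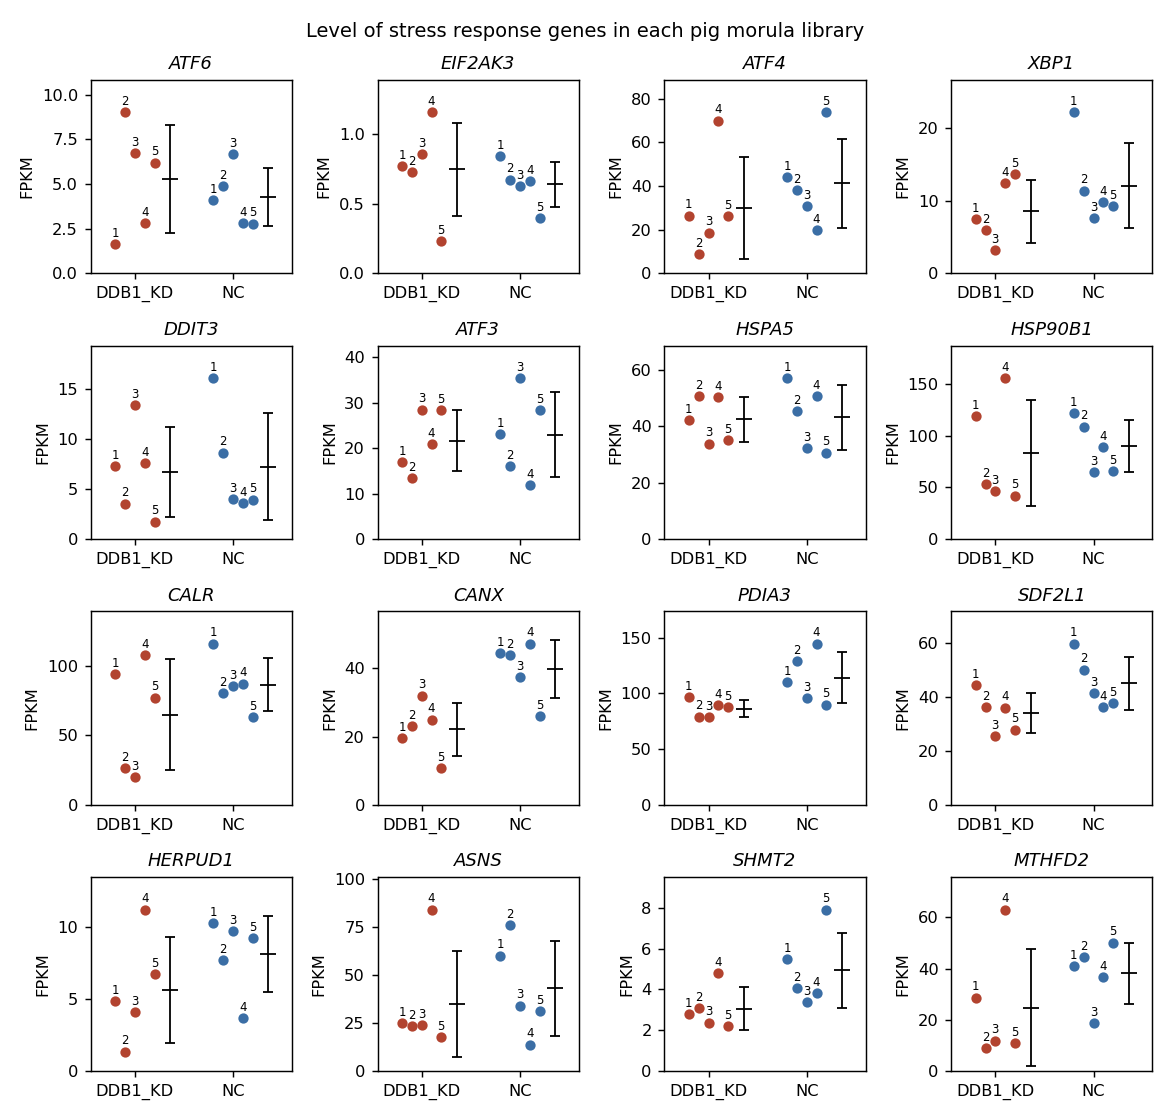
Level in FPKM (linear axis from 0) of 16 stress response genes in each library. Points are libraries with their replicate number, DDB1_KD in red and NC in blue, and the black bars give mean ± SD of 5. CANX separates the groups except for DDB1_KD replicate 3 and NC replicate 5, and DDB1_KD replicate 4 stands above its group for ATF4, ASNS and MTHFD2.

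ATF4 (chromosome 5, 8738880 to 8744281, minus strand), the transcription factor through which the eIF2 kinases act, spanned a wide range in both groups. It had 26.4, 8.80, 18.6, 69.9 and 26.3 FPKM in DDB1_KD and 43.9, 38.1, 30.7, 19.6 and 73.9 FPKM in NC. The groups overlapped, with DDB1_KD replicate 4 next to the highest NC library and replicate 2 the lowest of all 10. Its log2 fold change was -0.47 (SE 0.45, edgeR adjusted p = 0.977), and it was -0.95 without DDB1_KD replicate 4 and -0.19 without NC replicate 5. The gene FPKM understates ATF4 against other genes, since it divides by a length that includes 2 long isoforms with almost no signal. The interval given above is that of these 2 isoforms. Nearly all counts were on another isoform (ENSSSCT00000000090), listed at 8742967 to 8745368, which ends beyond that interval. Overlaps with other genes were sought over the gene interval alone. Summed over isoforms the mean over 10 libraries was 120 FPKM, 3.36 times the gene value of 35.6 FPKM, which places ATF4 above every other member on the isoform scale. The same ratio was 2.22 for DDIT4 and 1.69 for DDIT3 and below 1.5 for the other 29 members. This ratio does not enter the count-based fold changes.

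XBP1 (chromosome 14, 46008520 to 46016631, minus strand), whose spliced mRNA encodes the factor activated by IRE1, had 7.47, 5.995, 3.19, 12.4 and 13.7 FPKM in DDB1_KD and 22.3, 11.4, 7.58, 9.78 and 9.25 FPKM in NC. One NC library, replicate 1, stood above all others. The log2 fold change was -0.50 (SE 0.40, edgeR adjusted p = 0.977), and -0.15 without NC replicate 1. DDIT3 (chromosome 5, 22781192 to 22789825, minus strand), the CHOP factor that promotes death under lasting ER stress, had 7.28, 3.54, 13.4, 7.62 and 1.76 FPKM in DDB1_KD and 16.1, 8.63, 4.003, 3.58 and 3.94 FPKM in NC. Its fitted value of -0.096 (SE 0.55) was 0.41 without NC replicate 1 and -0.56 without DDB1_KD replicate 3, and reads of MARS on the other strand may be shared. ATF3, a stress-induced repressor, had 16.9, 13.4, 28.5, 20.9 and 28.4 FPKM in DDB1_KD and 23.1, 16.1, 35.5, 12.0 and 28.3 FPKM in NC. The NC range enclosed the DDB1_KD range, and the fitted value was -0.042 (SE 0.32), from -0.19 to 0.16 with a library left out.

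Effectors of the integrated stress response were expressed at low levels. PPP1R15A (GADD34), the phosphatase subunit that reverses eIF2 phosphorylation, averaged 1.003 ± 0.504 FPKM in DDB1_KD, against 1.26 ± 0.687 FPKM in NC (SD over 5 libraries; log2 fold change -0.32, SE 0.45, -0.54 when DDB1_KD replicate 4 was left out and -0.049 when NC replicate 5 was). DDIT4 (REDD1), an inhibitor of mTORC1, averaged 2.35 ± 1.22 FPKM in DDB1_KD, against 2.58 ± 1.18 FPKM in NC (-0.13, SE 0.46, from -0.37 to 0.098 with a library left out). CHAC1, which degrades glutathione, ran from 0.162 to 4.80 FPKM in DDB1_KD and from 0.627 to 3.81 FPKM in NC (-0.39, SE 0.79). Its highest libraries were DDB1_KD replicate 4 and NC replicate 2, and its value was -1.40 without the first and 0.11 without the second. TRIB3, a pseudokinase induced by ATF4 and CHOP, was below the filter, at 0.0406, 0.338, 0.160, 1.18 and 0.0636 FPKM in DDB1_KD and 0.410, 0.249, 0.260, 0.151 and 1.74 FPKM in NC. DDB1_KD replicate 4 and NC replicate 5, the libraries with most ATF4, were also those with most TRIB3. Among the amino acid and one-carbon enzymes, NC replicate 5 was the highest NC library for SHMT2 and MTHFD2, but not for ASNS, PHGDH or PSAT1. TRIB3 overlaps TBC1D20 on the other strand and RBCK1 on its own, PPP1R15A overlaps TULP2 and CHAC1 overlaps INO80, so their reads may be shared.

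The main ER chaperone had close means in both groups. HSPA5 (BiP; chromosome 1, 265930042 to 265947997, minus strand), the Hsp70 of the ER and the usual readout of ER stress, had 42.2, 50.8, 33.9, 50.2 and 35.2 FPKM in DDB1_KD and 57.1, 45.4, 32.2, 50.5 and 30.7 FPKM in NC. It averaged 42.5 ± 8.004 FPKM in DDB1_KD, against 43.2 ± 11.5 FPKM in NC (SD over 5 libraries). The log2 fold change was -0.040 (SE 0.22, edgeR adjusted p = 0.984) and lay between -0.16 and 0.085 when each library was left out. HSP90B1 (GRP94), the Hsp90 of the ER, was split within DDB1_KD, at 119 and 156 FPKM in replicates 1 and 4 and 53.0, 46.5 and 42.2 FPKM in replicates 2, 3 and 5, against 122, 109, 64.8, 89.4 and 65.8 FPKM in NC. The 3 low libraries were below all NC libraries and the log2 fold change was -0.15 (SE 0.36), with -0.43 when DDB1_KD replicate 4 was left out and 0.0080 when replicate 5 was.

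The co-chaperones of HSPA5 lay on both sides of 0. HYOU1, its nucleotide exchange factor, had 1.56, 1.88, 1.37, 1.93 and 0.923 FPKM in DDB1_KD and 1.25, 1.47, 1.15, 1.28 and 0.899 FPKM in NC. Although 3 DDB1_KD libraries were above every NC library, HYOU1 did not pass (log2 fold change 0.32, SE 0.27, edgeR adjusted p = 0.977). The J-domain genes DNAJB9 (0.29, SE 0.36) and DNAJC3 (0.26, SE 0.33) had higher fitted values that leaned on single libraries of both groups. They were at 0.055 and -0.022 without DDB1_KD replicate 2, and at 0.10 and 0.12 without NC replicate 5. DNAJB11, another J-domain partner, was at -0.11 (SE 0.20). SDF2L1, a stabiliser of the BiP cycle, had 44.3, 36.3, 25.5, 35.98 and 27.8 FPKM in DDB1_KD and 59.6, 50.05, 41.3, 36.2 and 37.6 FPKM in NC. All DDB1_KD libraries but replicates 1 and 2 were below all NC libraries, and its log2 fold change was -0.40 (SE 0.22, edgeR adjusted p = 0.977), from -0.52 to -0.28 with a library left out. DNAJB9 and DNAJB11 overlap THAP5 and TBCCD1 on the other strand.

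The lectin chaperones CANX and CALR, which hold newly made glycoproteins until they fold, had lower mean levels in DDB1_KD. CANX (calnexin; ENSSSCG00000014020, chromosome 2, 78877603 to 78915823, minus strand) is bound to the ER membrane. It had 19.6, 23.0, 31.96, 24.97 and 10.9 FPKM in DDB1_KD and 44.4, 43.9, 37.4, 47.1 and 26.0 FPKM in NC. Counts were 3391 to 8890 in DDB1_KD and 8175 to 15743 in NC. The groups met only at DDB1_KD replicate 3, which lay above NC replicate 5. The log2 fold change was -0.86 (SE 0.27), with the smallest p of the 29 genes (0.00797, rank 26 of 8476), but the edgeR adjusted p was 0.977. Over the 17 alternative settings the value stayed between -1.06 and -0.69, the unadjusted p between 0.00186 and 0.0224 and the adjusted p between 0.469 and 0.9999. CALR (calreticulin), the soluble relative, had 93.8, 26.3, 19.8, 108 and 77.1 FPKM in DDB1_KD and 116, 80.4, 85.2, 87.2 and 63.4 FPKM in NC. In DDB1_KD it was low in replicates 2 and 3 and within the NC range in the other 3 (log2 fold change -0.42, SE 0.41, -0.61 when DDB1_KD replicate 4 was left out and -0.19 when DDB1_KD replicate 3 was).

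Isoform values of both genes were uneven between libraries. The most abundant CANX isoform (ENSSSCT00000041740, 14 exons) had 17.3, 11.3, 12.7, 23.5 and 9.003 FPKM in DDB1_KD and 32.9, 42.2, 35.1, 30.1 and 12.4 FPKM in NC (log2 fold change -1.08, SE 0.35, unadjusted p = 0.0117). In DDB1_KD replicate 3 another CANX isoform (ENSSSCT00000043326) was listed at 23.7 FPKM, and it had 0 counts in the other 9 libraries. CALR signal sat on ENSSSCT00000015020 in 8 libraries, but in DDB1_KD replicate 5 it was split between 10.4 FPKM there and 69.8 FPKM on ENSSSCT00000048882, which was at 0 counts elsewhere. In NC replicate 2 it was split between 14.9 FPKM and 69.8 FPKM on ENSSSCT00000045310. The gene level of CALR in those 2 libraries, 77.1 and 80.4 FPKM, was between the levels of the others. A further CANX isoform (ENSSSCT00000015315) ran from 0.959 to 16.2 FPKM in DDB1_KD and from 2.05 to 23.8 FPKM in NC (log2 fold change -1.50, SE 0.96), and ENSSSCT00000058492 from 1.14 to 2.35 FPKM in DDB1_KD and from 0.831 to 1.88 FPKM in NC (0.35, SE 0.37). The 2 isoforms of DDIT3 were at -0.041 (ENSSSCT00000059228, SE 0.64) and -0.34 (ENSSSCT00000051374, SE 0.59). Both isoforms of P4HB, ENSSSCT00000051214 and ENSSSCT00000037157, were listed at 0 counts in some libraries, so their fold changes are not given. Of 70 isoforms listed for the 32 genes, 34 passed the filter and 0 were called (smallest adjusted p = 0.9997 in edgeR), where 0.00889% of all 11250 isoforms tested were called. At an unadjusted p under 0.05 there were 3 isoforms of members, beside 3.36% of all isoforms, and 2 of the 3 were those with counts in 1 library.

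**Figure D3:**
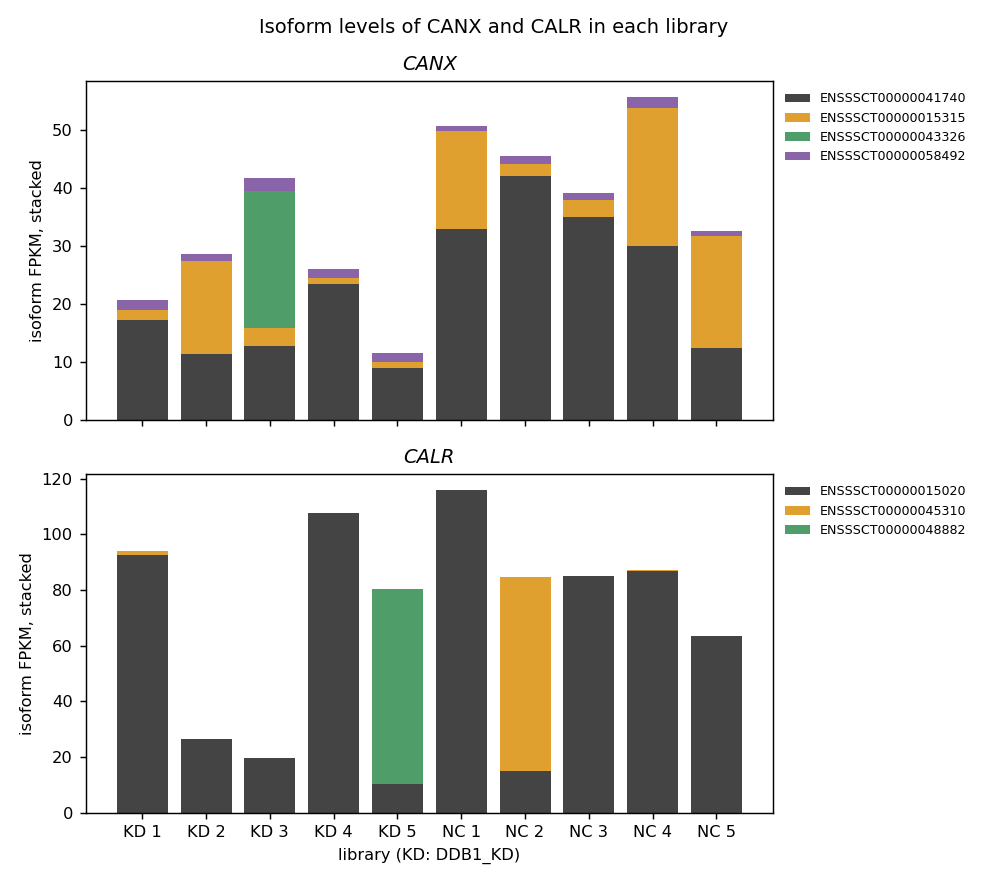
Stacked isoform FPKM of CANX (upper panel) and CALR (lower panel) in each library, for isoforms with a mean of at least 1 FPKM, DDB1_KD on the left and NC on the right. The green isoforms appear in 1 library each, at 23.7 FPKM for CANX in DDB1_KD replicate 3 and 69.8 FPKM for CALR in DDB1_KD replicate 5.

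Among the protein disulfide isomerases, which form and rearrange disulfide bonds in the ER, PDIA3 had the smallest p. This partner of both lectins (chromosome 1, 127786174 to 127814096, minus strand) had 96.6, 79.3, 78.5, 89.7 and 87.9 FPKM in DDB1_KD and 110.3, 129, 96.0, 145 and 90.1 FPKM in NC. The DDB1_KD libraries lay close together (86.4 ± 7.58 FPKM, against 114 ± 22.7 FPKM in NC; SD over 5 libraries), and 4 of them were below all NC libraries. The log2 fold change was -0.40 (SE 0.19, edgeR adjusted p = 0.977), from -0.49 to -0.28 with a library left out. PDIA6 had 17.7, 14.5, 9.83, 25.9 and 6.41 FPKM in DDB1_KD and 24.6, 16.2, 16.5, 15.8 and 17.3 FPKM in NC. DDB1_KD libraries lay both above and below the NC range (log2 fold change -0.31, SE 0.30, -0.54 when DDB1_KD replicate 4 was left out and -0.12 when DDB1_KD replicate 5 was). P4HB, also a subunit of the collagen hydroxylase, ran from 1.24 to 10.5 FPKM in DDB1_KD and from 2.74 to 8.18 FPKM in NC (-0.13, SE 0.49, from -0.47 to 0.13 with a library left out). PDIA4 was at 0.022 (SE 0.28), from -0.18 to 0.17 with a library left out. PDIA6 overlaps ATP6V1C2 on the other strand.

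Of the degradation factors, HERPUD1, which organises the ER ligase complex, had 4.86, 1.33, 4.06, 11.2 and 6.72 FPKM in DDB1_KD and 10.2, 7.69, 9.70, 3.68 and 9.21 FPKM in NC. DDB1_KD replicate 4 was the highest of all libraries and replicate 2 the lowest, and the log2 fold change was -0.52 (SE 0.44), with -0.84 when replicate 4 was left out and -0.27 when replicate 2 was. EDEM1, which hands trimmed glycoproteins to degradation, had 0.875, 0.560, 0.962, 1.94 and 1.11 FPKM in DDB1_KD and 1.498, 2.13, 1.10, 1.13 and 1.24 FPKM in NC (log2 fold change -0.40, SE 0.36, -0.64 when DDB1_KD replicate 4 was left out and -0.16 when NC replicate 2 was). Its DDB1_KD libraries were below or at the lower edge of NC except replicate 4. SEL1L, the adaptor of the ligase HRD1, averaged 2.80 ± 1.22 FPKM in DDB1_KD, against 3.29 ± 1.01 FPKM in NC (SD over 5 libraries; log2 fold change -0.20, SE 0.36, from -0.36 to 0.0037 with a library left out). None of these 3 genes passed (edgeR adjusted p = 0.977 for each). HERPUD1 overlaps SLC12A3 on its own strand, so reads may be shared.

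All 5 amino acid and one-carbon enzymes, known targets of ATF4, had lower fitted values in DDB1_KD, and none passed. SHMT2 (chromosome 5, 22534784 to 22539962, plus strand), the mitochondrial serine hydroxymethyltransferase, had 2.78, 3.06, 2.37, 4.82 and 2.21 FPKM in DDB1_KD and 5.47, 4.06, 3.39, 3.81 and 7.91 FPKM in NC. Only DDB1_KD replicate 4 reached into the NC range, and the log2 fold change was -0.70 (SE 0.33, edgeR adjusted p = 0.977). MTHFD2 (chromosome 3, 68820683 to 68853067, minus strand), the next enzyme of the mitochondrial folate pathway, had 28.7, 8.86, 11.8, 63.1 and 10.8 FPKM in DDB1_KD and 41.0, 44.5, 18.8, 36.6 and 50.2 FPKM in NC. Here DDB1_KD replicate 4 was the highest of all 10 libraries and replicates 2, 3 and 5 the lowest 3. The log2 fold change of MTHFD2 was -0.68 (SE 0.48) with all libraries and -1.29 without that replicate 4, and MOB1A overlaps it on the other strand.

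ASNS, asparagine synthetase, had 84.2 FPKM in DDB1_KD replicate 4 and 17.8 to 25.0 FPKM in the other 4 DDB1_KD libraries, against 13.8 to 76.2 FPKM in NC (log2 fold change -0.36, SE 0.48). Its value was -0.90 without DDB1_KD replicate 4 and -0.0034 without NC replicate 2. The serine synthesis genes PHGDH and PSAT1 varied widely between libraries. PHGDH ran from 0.740 to 13.6 FPKM in DDB1_KD and from 0.870 to 9.03 FPKM in NC (-0.18, SE 0.65; -0.84 with DDB1_KD replicate 4 left out and 0.094 with replicate 5 left out). PSAT1 ran from 0.0261 to 2.86 FPKM in DDB1_KD and from 0.0937 to 3.81 FPKM in NC (-0.39, SE 0.94, from -0.80 to 0.21 with a library left out), on counts of 2 to 179. Both were lowest in DDB1_KD replicate 5 and NC replicate 4, and both were high in DDB1_KD replicate 4, NC replicate 1 and NC replicate 2.

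**Figure D4:**
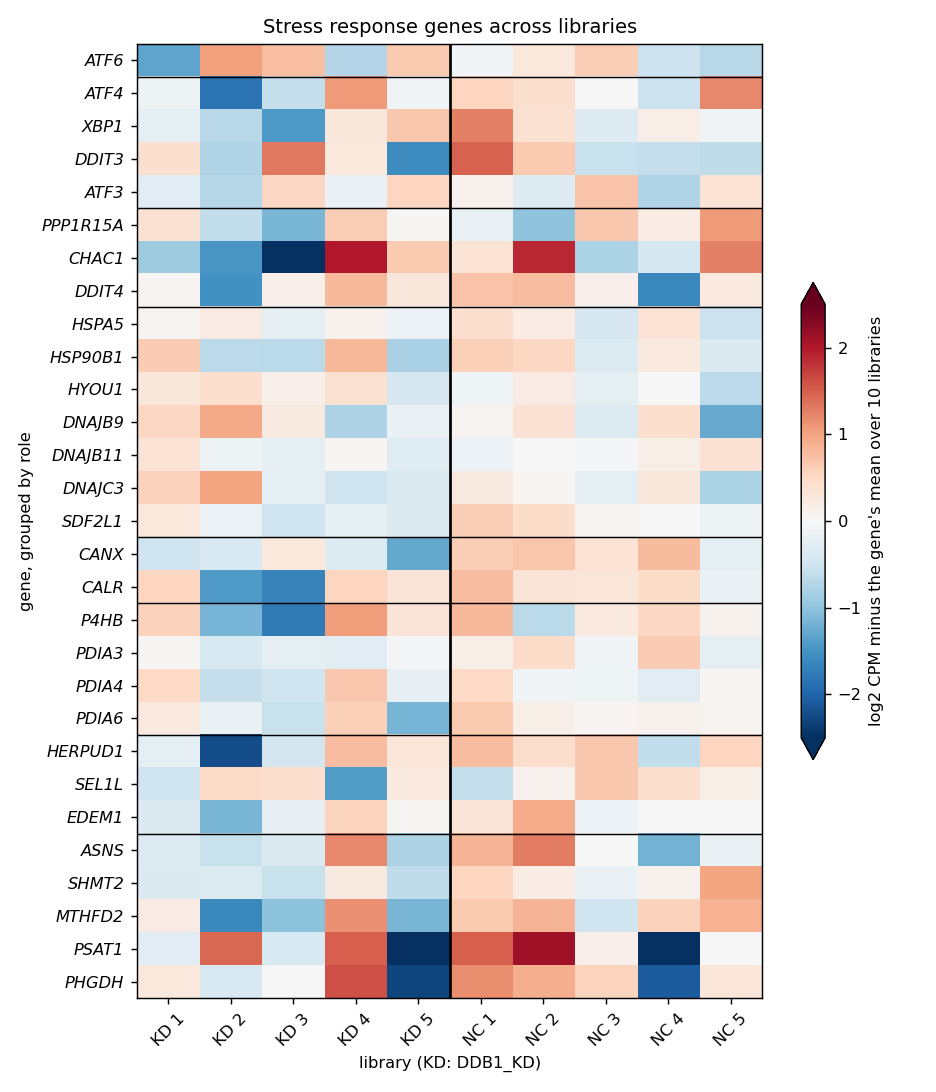
Log2 CPM of the 29 genes minus each gene's mean over 10 libraries (colour, red above and blue below the mean), with DDB1_KD libraries left of the vertical line, NC libraries right of it, and horizontal lines between role groups. Columns KD 4, NC 1 and NC 2 are mostly red, columns KD 2 and KD 3 mostly blue, and PSAT1 and PHGDH at the bottom are darkest blue in KD 5 and NC 4.

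The libraries of each group differed among themselves. As a description over the 29 genes, the mean deviation from each gene's own average was 0.015, -0.46, -0.40, 0.41 and -0.38 log2 CPM in DDB1_KD and 0.50, 0.43, 0.030, -0.20 and 0.054 log2 CPM in NC. DDB1_KD replicate 4 had 21 genes above their average, beside 24 in each of NC replicates 1 and 2, while DDB1_KD replicates 2, 3 and 5 had 7, 8 and 11. The lowest library of a gene was DDB1_KD replicate 2 for 6 genes, replicate 3 for 6 and replicate 5 for 8, where 19.1%, 9.62% and 13.9% of all genes tested had their lowest value there. The highest was DDB1_KD replicate 4 for 7 and NC replicate 1 for 7, with 13.001% and 7.95% of all genes. The median deviation over all genes tested was between -0.027 and 0.051 log2 CPM in every library.

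The spread between libraries was wider in DDB1_KD for 23 of the 29 genes, and for 70.4% of all genes tested. The median coefficient of variation was 50.7% in DDB1_KD and 32.7% in NC for the 29 genes, against 38.0% in DDB1_KD and 28.2% in NC over all genes tested. The amino acid enzymes swung widely from library to library, with a mean deviation of -0.10, -0.29, -0.47, 1.13 and -1.65 log2 CPM in DDB1_KD and 0.94, 1.07, 0.0052, -1.03 and 0.40 log2 CPM in NC. The 7 ER chaperones and co-chaperones together stayed between -0.36 and 0.38 in DDB1_KD and between -0.48 and 0.25 in NC. The summed level of the 13 chaperones, lectins and isomerases was 518, 372, 295, 563 and 337 FPKM in DDB1_KD and 608, 534, 431, 539 and 386 FPKM in NC. Beside these values stand the maternal transcripts, which were highest in DDB1_KD replicates 2, 3 and 5, the libraries with the lowest summed chaperone levels of their group. NC did not follow that order, since NC replicate 5 had both the lowest summed chaperone level and the lowest maternal level of its group, and NC replicate 3, with the highest maternal level, had the next lowest chaperone level. The part of maternal transcript level in the difference between groups was not tested.

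**Figure D5:**
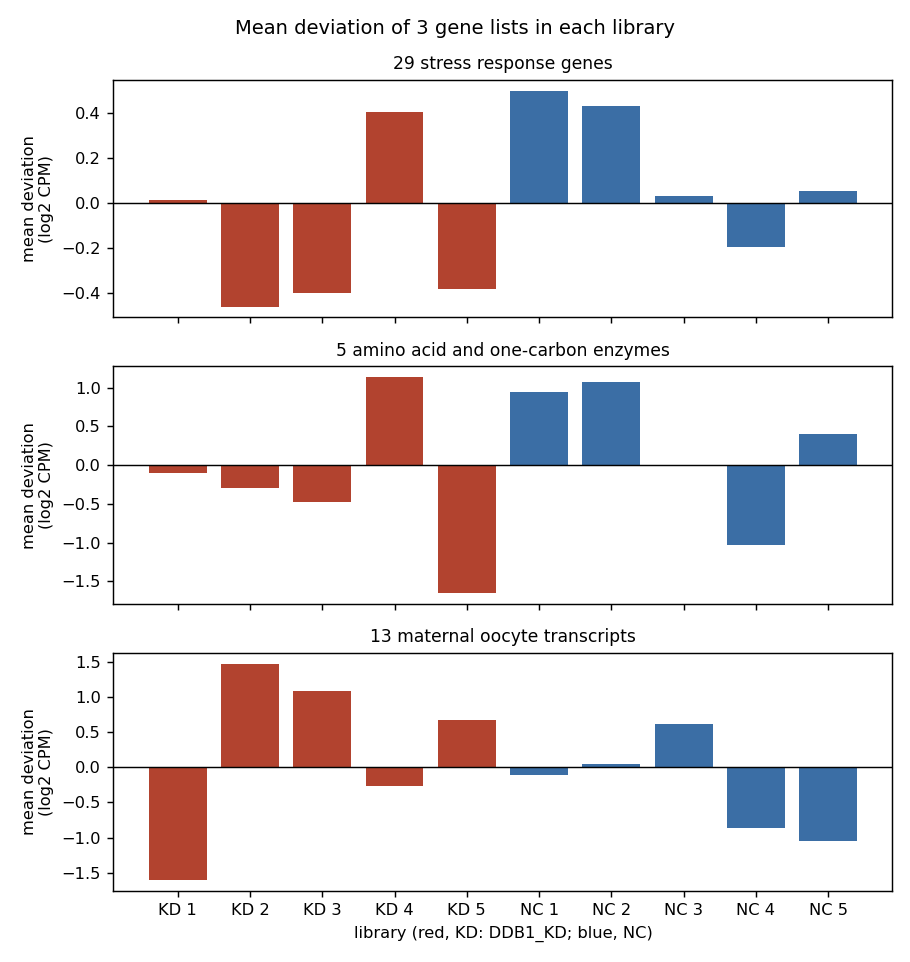
Mean deviation in log2 CPM of 29 stress response genes (top), 5 amino acid and one-carbon enzymes (middle) and 13 maternal oocyte transcripts (bottom) in each library, DDB1_KD in red on the left and NC in blue on the right. DDB1_KD replicates 2, 3 and 5 are below 0 at the top and above 0 at the bottom, and DDB1_KD replicate 4 stands at 0.41, 1.13 and -0.27.

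Further genes of the pathways lay nearer to the average of all genes. Of 127 listed, 104 were tested, of which 0 passed, 59 had a lower and 45 a higher fitted value (median log2 fold change -0.049). The other amino acid and one-carbon genes had 9 of 13 lower (median -0.29), and the other stress kinases and regulators 11 of 18 (median -0.19). ER translocation genes had 7 of 17 lower (median 0.038), N-glycosylation genes 7 of 14 (-0.012), other folding enzymes 12 of 22 (-0.053) and other degradation genes 13 of 20 (-0.049). SLC38A2, an amino acid transporter induced by ATF4, averaged 1.61 ± 0.605 FPKM in DDB1_KD, against 3.48 ± 1.40 FPKM in NC (SD over 5 libraries; log2 fold change -1.10, SE 0.40). It alone of the 104 had an unadjusted p under 0.05 (0.0168). ATF5, an ATF4 relative, was at -0.79 (SE 0.40), and EIF2S1, the eIF2 subunit that the kinases phosphorylate, at 0.64 (SE 0.33). EIF2S1 was above the NC range (102 to 149 FPKM) in DDB1_KD replicates 2, 3 and 5, within it in replicate 1 and below it in replicate 4. GANAB, the glucosidase subunit that trims glycans ahead of lectin binding, was at -0.81 (SE 0.38). STT3A, a catalytic subunit of the oligosaccharyltransferase, was at 0.42 (SE 0.20, edgeR adjusted p = 0.977), from 0.22 to 0.51 with a library left out. Its 5 DDB1_KD libraries lay narrowly above all NC libraries, the lowest at 31.0 FPKM against the highest of NC at 30.8 FPKM. DDB1_KD replicate 2 stood at 60.5 FPKM. Over all genes tested, 0.189% had groups without overlap in this direction. SYVN1, the ligase HRD1, was at -0.29 (SE 0.17) and the translocon-associated SSR2 at -0.26 (SE 0.16). The remaining named genes had fitted values of 0.47 for FAF2, 0.23 for TRAM1, 0.25 for TMX2, -0.35 for SIL1 and 0.40 for ALDH18A1.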

How the data were processed

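RNA of 5 DDB1_KD and 5 NC libraries was measured by paired-end sequencing of cDNA cut with an enzyme, per the labels' protocols. The authors deposited FPKM values and estimated counts per gene and isoform, per the file headers. The submitters' processing notes name the build susScr11 and, without roles, edgeR, StringTie, HISAT2, fastp, ChIPseeker and HOMER. In the deposited tables every isoform count equalled FPKM times isoform length times 1 constant per library (100% within 1.5 counts plus 0.5%), and FPKM is 0.0001 where the count is 0. These estimated counts may derive from coverage, so their sampling error may not be that of reads. How strand was used in counting is unknown here, and 8 of the 32 genes overlap a gene on the other strand. Columns spelled DBB1 were matched to DDB1_KD samples by number.

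Genes and isoforms with a mean of at least 1 FPKM over 10 libraries were fitted with edgeR 4.0.16 (TMM, glmQLFit, glmQLFTest, group alone; R 4.3.3), on counts that were already whole. p-values were adjusted over all features (Benjamini-Hochberg, 0.05). The SE is the unshrunken coefficient over the root of F. limma 3.58.1 and DESeq2 1.42.0 were run as alternatives, with other filters, scaling, pseudocounts, a replicate block and each library left out. Log2 CPM used TMM and a prior count of 2. The fits were tested on simulated data whose planted fold changes were all larger than any member's gene value with all libraries. That test therefore does not show whether changes of the members' size would be found. Python 3.11.15, pandas 2.3.3 and matplotlib 3.10.9 did the rest.

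The members and lists were chosen with earlier results of these data known. Values in every library are given for the sensors, the transcription factors, HSPA5 and the 10 members with the smallest p. The same is done for TRIB3, HSP90B1 and CALR, chosen after their values were seen. In each further pathway list the 2 genes with the smallest p are named.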

Additional observations from a re-analysis of the deposited data

Results flagged for a closer look

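In 8 of 66 groups of 5 values tested (33 genes in 2 groups, DDB1 included), 1 library stood far from the other 4, with a gap to its neighbour of over 0.71 of the group's range. Chance flags about 1 in 20 groups if values are normally distributed, which was not checked for these FPKM values on a linear scale. All 8 flagged libraries were the highest of their group, and ERN1 had libraries without counts in both groups. The genes are also not independent of each other. The number of flags therefore cannot be set against that rate, and no excess over chance is claimed.

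DDB1_KD replicate 4 stood apart for 3 genes of the ATF4 branch. ATF4 was at 69.9 FPKM there, with the next DDB1_KD library at 26.4 FPKM. ASNS was at 84.2 FPKM, with the next at 25.0 FPKM, and TRIB3 at 1.18 FPKM, with the next at 0.338 FPKM. Without being flagged, replicate 4 was also the highest DDB1_KD library for HSP90B1, HYOU1, CALR, P4HB, PDIA4, PDIA6, HERPUD1 and EDEM1. It was the lowest of that group for DNAJB9 and SEL1L.

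Among NC libraries, replicate 1 stood apart for XBP1 at 22.3 FPKM (next 11.4 FPKM), for PDIA6 at 24.6 FPKM (next 17.3 FPKM) and for ERN1 at 0.181 FPKM (next 0.0510 FPKM). TRIB3 was at 1.74 FPKM in NC replicate 5, with the next NC library at 0.410 FPKM. ERN1 was at 0.874 FPKM in DDB1_KD replicate 5, with the next DDB1_KD library at 0.0374 FPKM. What sets these libraries apart was not tested.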

How the results depend on the processing

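No gene was called in the gene comparison under edgeR with any filter, scaling, block or library left out, or under limma, and DESeq2 called 2 genes, neither a member. DDB1 passed in DESeq2 (log2 fold change -1.36). The isoform comparison, with 1 isoform called and no member among them, gave 0 with no filter, 0 with a mean FPKM of at least 5, 0 with the replicate block, and 0 to 2 when 1 library was left out (2 when DDB1_KD replicate 4 was absent, 1 when NC replicate 2 was, and otherwise 0). The members' median of -0.31 ran from -0.37 to -0.24 over the other alternatives. With 1 library left out it was -0.12 without NC replicate 2, -0.17 without NC replicate 1, -0.18 without DDB1_KD replicate 5, -0.19 without DDB1_KD replicate 3, -0.20 without DDB1_KD replicate 2 and -0.47 without DDB1_KD replicate 4. The number of lower members was 19 to 24 of 29 with 1 library left out.

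Over 484 pairs of a member and an alternative 0 passed, and 35 had the opposite sign, 31 of them with 1 library left out. PDIA4 was at -0.045 and -0.053 with limma at pseudocounts of 1 and 0.1 and at -0.052 with the replicate block, and HSPA5 was at 0.0046 with the replicate block. With 1 library left out the ranges that crossed 0 were -0.56 to 0.41 for DDIT3, -0.19 to 0.16 for ATF3, -1.40 to 0.11 for CHAC1, -0.37 to 0.098 for DDIT4, -0.16 to 0.085 for HSPA5, -0.43 to 0.0080 for HSP90B1, -0.022 to 0.39 for DNAJC3, -0.47 to 0.13 for P4HB, -0.18 to 0.17 for PDIA4, -0.36 to 0.0037 for SEL1L, -0.80 to 0.21 for PSAT1 and -0.84 to 0.094 for PHGDH. The cause was not tested. The values showed no consistent pairing by replicate number, which does not settle how the libraries were made. Same-numbered libraries correlated at -0.056, 0.13, 0.35, -0.053 and -0.14 in their deviations from the group means, and 2 of 10 libraries correlated best with their own number. Low counts limit ERN1, TRIB3 and PSAT1.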
